A study of Mus musculus with 6 samples.

Results

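The genes described here are 8 markers of the primed epiblast, Otx2, Pou3f1, Zic2, Sox3, Foxd3, Sall2, Pim2 and Car14, followed across mouse embryonic stem cells in which activin signalling was raised or blocked. They were chosen by name, with earlier results of these data known. Every probe set annotated to 1 of them alone was taken. This gave 10 probe sets of the 45037 tested, 2 each for Pou3f1 and Sox3 and 1 for each other gene. Of the 8, 6 encode transcription factors, while Pim2 encodes a serine/threonine kinase and Car14 a carbonic anhydrase, so the set is wider than its transcription factors.

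Embryonic stem cells of the naive kind resemble the preimplantation epiblast. As the epiblast implants it passes through a formative state to a primed one, in which Otx2 and Pou3f1 (Oct6) are switched on and help to redirect the shared factor Pou5f1 (Oct4) to new enhancers, while naive factors such as Klf4 and Tfcp2l1 decline. Activin and Nodal signal through type I receptors and Smad2/3, and cultured primed epiblast stem cells depend on that signal. Several of these genes, Sox3, Zic2, Otx2 and Pou3f1 among them, are used again in the early neural plate.

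The cells were of the E14Tg2a line, a single embryonic stem cell line, and every arm was kept in the serum-free medium N2B27, to which BMP4 (20 ng/ml) and LIF (1000 U/ml) had been added. One arm received activin at 10 ng/ml for 2 h, another received the type I receptor kinase inhibitor SB431542 at 5 µM for 24 h, and control cells were untreated, with no vehicle stated. Each arm had 2 arrays, and whether the 2 were independent cultures is not stated in the labels. The p-values therefore rest on how far the 2 arrays of a group differ, a spread that may be technical. Because the treatments also differ in duration, an effect of activin against SB431542 cannot be told apart from that of 2 h against 24 h.

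The deposited values are intensities of Affymetrix probe sets, groups of short probes for 1 transcript, and differences are given as log2 of the intensity. The suffix of the Otx2 probe set (_a_at) marks probes that match several transcripts of 1 gene, and that of Car14 (_s_at) probes shared among transcripts that need not be of 1 gene. Median intensities were 38 and 49 on the activin arrays, 43 and 41 on the SB431542 arrays, and 46 and 37 on the control arrays. The 27 control probe sets for bacterial transcripts read between 3.00 and 5.09 on the log2 scale. They were taken to describe the background, on the assumption that these transcripts were not added to the RNA. Of the 10 member probe sets, 9 lay above that range on all 6 arrays, the exception being the dimmer Sox3 probe set. All 6 markers of embryonic stem cells that were set beside them, Pou5f1, Nanog, Sox2, Zfp42, Esrrb and Utf1, also lay above it on every array. As a check of the pathway, Lefty2, a Nodal antagonist that Nodal itself induces, read 3.81 and 4.00 on the log2 scale after SB431542, inside the background range, against 8.96 and 8.95 in control cells. The measured difference of −5.05 (adjusted p = 0.0030 in limma) is thus a lower bound on its size. After activin it was higher by 1.39 (adjusted p = 0.789 in limma, and 2.03e-06 with the intensity trend described next). Lefty1 and Pmepa1, also set for this check, moved in the same directions as Lefty2. Id1 and Id3, targets of BMP4 in the same check, moved in the opposite directions. Their mean log2 levels were 12.40 and 11.46 after SB431542, 10.90 and 9.94 after activin, and 11.80 and 10.99 in control cells.

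Each probe set was tested in limma at its default settings over all 6 arrays and, beside that, with a prior variance that follows the intensity, fitted robustly, here called the intensity trend. An adjusted p under 0.05 over the 45037 probe sets was taken as passing. By the default test 0 of the 10 member probe sets passed in any comparison. Over all probe sets 0.0155%, 0% and 0.02% passed in SB431542 against control, activin against control and activin against SB431542. In the same order, 5, 1 and 2 of the 10 had an unadjusted p under 0.05 by that test. The share of all probe sets at that unadjusted level was not counted, so these 3 counts are not read as particular to the members. With the intensity trend 1 of the 10 passed, Pim2 in SB431542 against control, where 4.98% of all probe sets passed, 1.6% as lower and 3.38% as higher. In activin against control 0 of the 10 passed against a background of 0.215% (0.02% as lower and 0.195% as higher), and in activin against SB431542 0 of the 10 against 2.27% (1.47% as lower and 0.802% as higher). No log2 difference of a member exceeded 0.61 in size against control after SB431542, 0.50 after activin, or 0.58 between the treatments.

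**Figure D1:**
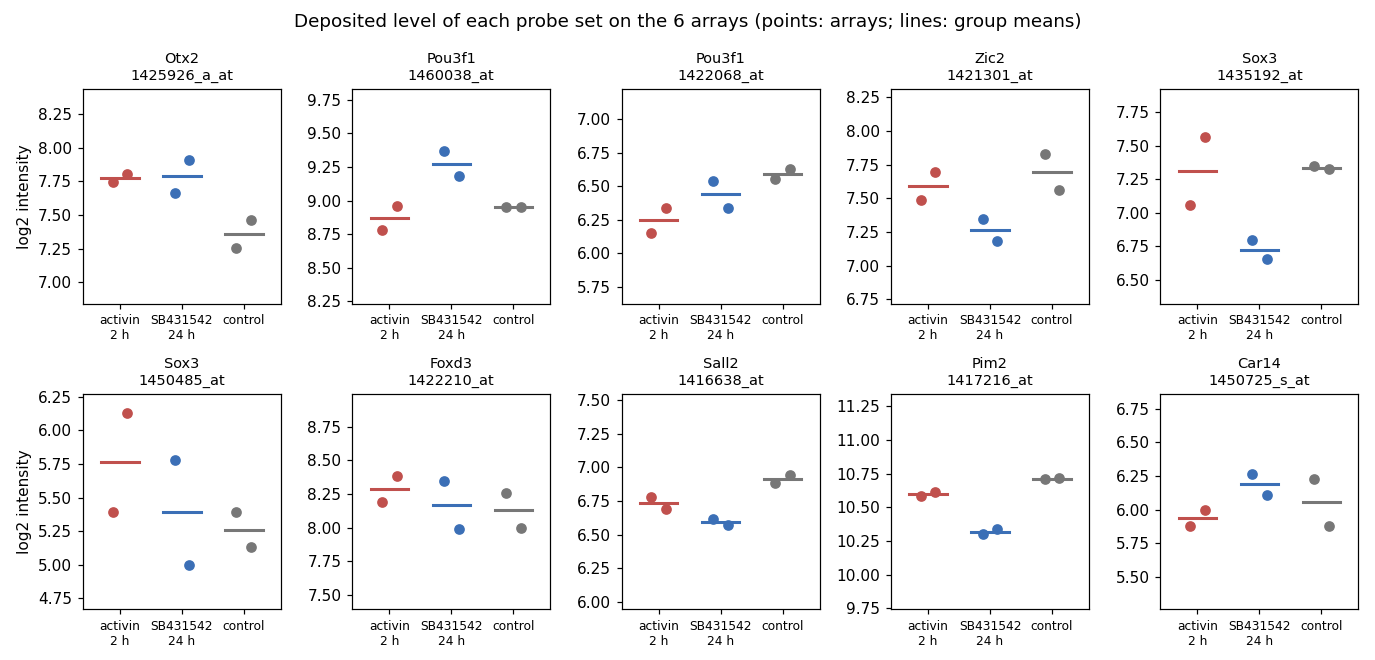
Log2 intensity of each of the 10 probe sets on the 6 arrays, by group (activin for 2 h, SB431542 for 24 h, control); points are arrays and lines are means of the 2. Every panel spans the same 1.6 log2 units around its own mean, so distances compare between panels while levels do not. Pim2 lies lowest after SB431542, Otx2 is above both controls on all 4 treated arrays, and the dimmer Sox3 probe set scatters most within groups.

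Upstream sequences are shown for Pim2, the gene whose probe set passed with the intensity trend, and for Otx2, the gene above control on every treated array. RefSeq windows (GRCm38.p6) of the 250 bases before the transcript start were found for 5 of the 8 genes, 9 windows in all, with Pou3f1, Zic2 and Sox3 named only. The Pim2 window is chrX:7878056-7878305 on the plus strand. The Otx2 window is chr14:48665110-48665359 on the minus strand, the only 1 of the 4 annotated for that gene that held a match. Among the others, chr14:48667509-48667758 and chr14:48667645-48667894 overlap each other. Each is written 5′ to 3′ along the gene's own strand. Capitals mark matches to the octamer ATGCAAAT, bound by POU factors such as Pou5f1 and Pou3f1, and to TAATCC, bound by bicoid-class homeodomains such as that of Otx2, on either strand.
Pim2: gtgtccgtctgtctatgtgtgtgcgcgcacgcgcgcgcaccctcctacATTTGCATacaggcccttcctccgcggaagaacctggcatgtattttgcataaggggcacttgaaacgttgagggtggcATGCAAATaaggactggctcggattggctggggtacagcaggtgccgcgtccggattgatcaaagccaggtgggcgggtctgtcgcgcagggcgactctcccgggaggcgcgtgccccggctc
Otx2: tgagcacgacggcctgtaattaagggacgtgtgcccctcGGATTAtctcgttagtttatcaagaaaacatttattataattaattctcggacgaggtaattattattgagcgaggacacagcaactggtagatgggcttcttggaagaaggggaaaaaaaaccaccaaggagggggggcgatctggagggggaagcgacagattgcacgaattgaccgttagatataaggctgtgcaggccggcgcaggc

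The Pim2 window held 2 octamers, 1 on each strand, with their near ends 195 and 116 bases before the start. No other member window held one, so 1 of the 9 did. Over all 32851 RefSeq windows of this length 1.6% held at least 1 octamer and 0.0974% held 2 or more. The bicoid motif was in 2 of the 9 member windows, those of Otx2 shown here and of Car14, against 6.25% of all windows. The letters AATNCACA, which the activin-signalling cofactor FoxH1 recognises, were in 0 of the 9, against 3.18% of all, and the Smad palindrome GTCTAGAC in 0 of the 9, against 0.167%. The 4 motifs did not overlap one another in these windows. They were chosen with the sequences in view, so the matches are a description of these letters and of no binding.

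Otx2 encodes the homeodomain factor that drives the exit from naive pluripotency and later patterns the forebrain. Its probe set (1425926_a_at) read 214 and 224 after activin, 203 and 240 after SB431542, and 153 and 176 in control cells. All 4 treated arrays stood above both controls, a pattern that 7.43% of all probe sets shared, and the treatments overlapped each other. The log2 difference from control was 0.43 after SB431542 (SE 0.15, 95% interval 0.055 to 0.80), with limma adjusted p = 0.344, and 0.155 with the intensity trend. After activin it was 0.42 (SE 0.15, 95% interval 0.043 to 0.79), with limma adjusted p = 0.793, and 0.539 with the intensity trend. Both comparisons use the same 2 control arrays. Between the treatments the difference was −0.012 (95% interval −0.38 to 0.36). Otx2 did not pass in any comparison; its levels were 1.35 times those of control after SB431542 and 1.33 times after activin.

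Pou3f1 encodes Oct6, a POU factor of the formative and primed epiblast. Its brighter probe set (1460038_at) read 662 and 580 after SB431542, against 495 and 496 in control cells. After activin the same probe set read 439 and 498. The SB431542 arrays were above the other 4, and the activin arrays overlapped the controls. The log2 difference of SB431542 from control was 0.32 (SE 0.14, limma adjusted p = 0.409, and 0.135 with the intensity trend). Activin against SB431542 gave −0.41 (SE 0.14, limma adjusted p = 0.501), with an adjusted p of 0.0721 by the intensity trend, the nearest of the members to the threshold in that comparison. With the intensity trend it passed there without control replicate 1 (adjusted p = 0.0273) or control replicate 2 (0.0290), although neither array belongs to the comparison and its difference stayed at −0.41, since they enter only through the shared variance.

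The dimmer Pou3f1 probe set (1422068_at) was also lowest after activin by its mean, but here SB431542 was below control. It read 71 and 81 after activin, 93 and 81 after SB431542, and 94 and 99 in control cells. Here the controls were highest, and the 2 treatments shared the value 81. The log2 difference from control was −0.15 after SB431542 (95% interval −0.51 to 0.20) and −0.35 after activin (95% interval −0.70 to 0.0083). The 2 probe sets therefore gave opposite signs after SB431542, and their mean was at 0.085, so no direction can be given for Pou3f1 in that comparison.

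Zic2 encodes a zinc finger factor that is kept from naive to primed cells and sits at enhancers, and it is needed in the forebrain midline. Its probe set (1421301_at) read 163 and 145 after SB431542, against 227 and 189 in control cells. After activin it read 179 and 207, overlapping the controls. SB431542 gave the lowest 2 values of the 6. The log2 difference of SB431542 from control was −0.43 (SE 0.16, 95% interval −0.83 to −0.029), with limma adjusted p = 0.366, and 0.176 with the intensity trend. Between activin and SB431542 it was 0.32 (95% interval −0.077 to 0.73).

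Sox3 encodes an HMG-box factor of the SoxB1 class, close to Sox2, and is a marker of late epiblast and neural plate. Its brighter probe set (1435192_at) read 111 and 101 after SB431542, against 163 and 160 in control cells. After activin it read 133 and 189, the widest gap of these 3 pairs. The SB431542 arrays were below the other 4. The log2 difference of SB431542 from control was −0.61 (SE 0.20, 95% interval −1.10 to −0.12), the largest in size among the 10, with limma adjusted p = 0.322. With the intensity trend its adjusted p was 0.0726, and 0.0486 without activin replicate 1. Activin was above SB431542 by 0.58 (SE 0.20, limma adjusted p = 0.493, and 0.152 with the intensity trend), and differed from control by −0.027 (95% interval −0.51 to 0.46).

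The second Sox3 probe set (1450485_at) lay near the background. It read 42 and 70 after activin, 55 and 32 after SB431542, and 42 and 35 in control cells, where the highest bacterial reading was 34. All 3 groups overlapped. Its 95% interval for SB431542 against control ran from −0.75 to 1.01, which includes the −0.61 of the brighter probe set.

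Foxd3 encodes a forkhead factor expressed in the epiblast, which stem cells need for self-renewal and which later specifies neural crest. Its probe set (1422210_at) read 293 and 334 after activin, 326 and 254 after SB431542, and 306 and 256 in control cells. The 3 groups overlapped throughout. The log2 difference from control was 0.04 after SB431542 (95% interval −0.42 to 0.50) and 0.16 after activin (95% interval −0.30 to 0.62). No difference in Foxd3 was detectable with 2 arrays a group.

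Sall2 encodes a zinc finger factor of the Spalt family that is found more in primed than in naive cells. Its probe set (1416638_at) read 110 and 103 after activin, 98 and 95 after SB431542, and 118 and 123 in control cells. The 3 groups did not overlap, with control highest and SB431542 lowest. The log2 difference from control was −0.32 after SB431542 (SE 0.12, limma adjusted p = 0.364) and −0.18 after activin (SE 0.12, limma adjusted p = 0.861). By the trend fit the SE was 0.22, and it gave adjusted p = 0.510 and 0.937.

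Pim2 encodes a serine/threonine kinase that promotes survival and growth and, in other cells, is induced by cytokines through Stat factors. Its probe set (1417216_at) read 1261 and 1295 after SB431542, against 1673 and 1682 in control cells. After activin it read 1536 and 1568. The groups did not overlap and their order was control, activin, SB431542 from high to low. Pim2 fell after SB431542 by the intensity trend, at a log2 difference of −0.39 from control (SE 0.092, 95% interval −0.58 to −0.21, adjusted p = 0.0061), or 0.762-fold. By the default test it did not pass (SE 0.11, limma adjusted p = 0.295). The call by the intensity trend held in 4 of the 6 fits that left out 1 array, and was lost without SB431542 replicate 1 (adjusted p = 0.139) or SB431542 replicate 2 (0.0645), while the difference stayed between −0.41 and −0.37. Activin differed from control by −0.11 (95% interval by the intensity trend −0.30 to 0.075) and from SB431542 by 0.28 (0.094 to 0.47, adjusted p = 0.122).

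Car14 encodes a membrane-bound carbonic anhydrase. Its probe set (1450725_s_at) read 59 and 64 after activin, 77 and 69 after SB431542, and 75 and 59 in control cells. Both treatments overlapped the controls, and only activin and SB431542 stood apart from each other. The log2 difference from control was 0.13 after SB431542 (95% interval −0.28 to 0.54) and −0.11 after activin (95% interval −0.53 to 0.30).

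**Figure D2:**
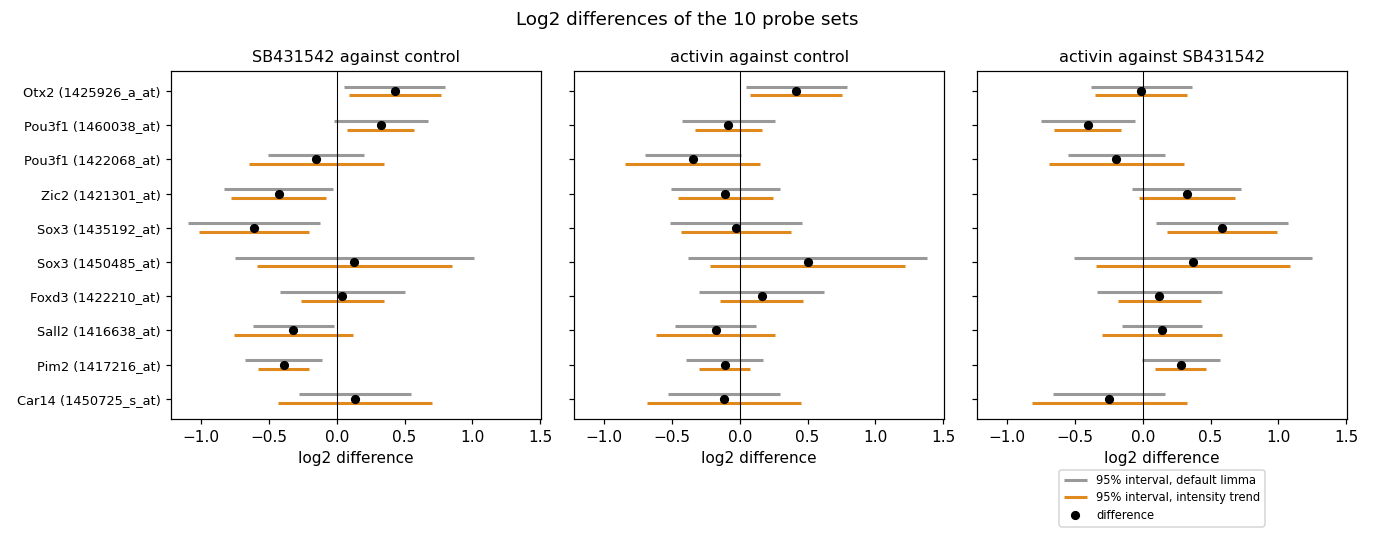
Log2 differences of the 10 probe sets (points) in the 3 comparisons, each as the first named group minus the second, with 95% intervals by default limma (grey) and by the intensity trend (orange). In SB431542 against control the Pim2 interval by the intensity trend ends at −0.21, and the 2 Pou3f1 points lie on opposite sides of 0.

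Set side by side, the members lay on both sides of control after SB431542. Of the 10 probe sets, 5 were lower than control with no overlap between groups, the dimmer of Pou3f1, Zic2, the brighter of Sox3, Sall2 and Pim2, where 22.1% of all probe sets were. Another 2 were higher with no overlap, Otx2 and the brighter of Pou3f1, where 20.6% of all probe sets were. After activin 3 were lower with no overlap, the dimmer of Pou3f1, Sall2 and Pim2, against 14.5% of all probe sets, and 1 was higher, Otx2, against 14.7%. Between activin and SB431542, 4 were higher with activin (Zic2, the brighter of Sox3, Sall2 and Pim2), against 18.7% of all probe sets, and 2 were lower (the brighter of Pou3f1, and Car14), against 18.2%. The 3 below control after activin were also below both controls after SB431542, a pattern of 7.84% of all probe sets in comparisons that share the controls. With 1 probe set per gene, the brightest, the median log2 difference of the 8 genes was −0.14 after SB431542 and −0.095 after activin, beside −0.0021 and −0.0063 for all 18193 genes.

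Within groups, several members followed the brightness of the array. For 5 of the 10 probe sets (Zic2, both of Sox3, Foxd3 and Car14) the higher array of each of the 3 pairs was the one with the higher median intensity. The share of all probe sets that did so was not counted, so this is not read as particular to the members. With all arrays shifted to 1 median, SB431542 against control stood at −0.46 for Zic2, −0.63 for the brighter Sox3 probe set, −0.42 for Pim2, 0.40 for Otx2 and 0.015 for Foxd3. None of these passed in that fit.

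The spread between the 2 arrays of a group differed by level. When the probe sets were cut into 10 equal bins by mean level, the brightest bin had a median residual SD of 0.0772, and the bin with the widest spread had 0.345. Pim2, the brightest member, had a residual SD of 0.0201, and Sall2 had 0.0493. The default test draws every probe set toward a prior SD of 0.168, and the intensity trend used 0.0910 in the brightest bin. The prior weighed 2.51 degrees of freedom by default and a median of 34.3 with the trend, beside 3 from the probe set's own arrays. For most probe sets the p-values of the trend fit therefore rest more on the spread of other probe sets of like level than on their own. For the dimmer Pou3f1 probe set and for Sall2, in a bin with a prior SD of 0.230, the intervals were wider with the trend.

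The other genes of the primed epiblast, a list of 31 of which 28 had a named probe set, were read beside the members. This list and those below were chosen with earlier results of these data known. Their counts therefore describe the lists and are no test of enrichment. With 1 probe set per gene, 9 of the 28 fell and 2 rose by the intensity trend, where 2.23% and 4.25% of all genes did, and 0 of 28 passed by default, with 5 lower in the 2 fits that left out an SB431542 array. Nodal, the ligand of the pathway, fell by 1.10 on the log2 scale (adjusted p = 4.47e-10 with the intensity trend), and its second probe set fell by 1.22. Fgf15, an FGF ligand of the early embryo, fell by 1.84 (adjusted p = 7.61e-08 with the intensity trend). Fst, which encodes the activin-binding protein follistatin, fell by 1.67 (adjusted p = 5.80e-07 with the intensity trend). Fgf8, a ligand of the primitive streak, was lower by 2.45 and ended at 4.22, within the range of the bacterial probe sets. The median of the 28 was −0.15. Against SB431542, activin gave 9 of the 28 higher and 2 lower by the intensity trend, where 1.26% and 2.12% of all genes were. The 9 higher became 5 without either SB431542 array, 6 without activin replicate 2, 7 without activin replicate 1, and 11 without either control array. By default limma 1 of the 28 passed there, Fgf15, higher with activin by 2.47 on the log2 scale (adjusted p = 0.0368).

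**Figure D3:**
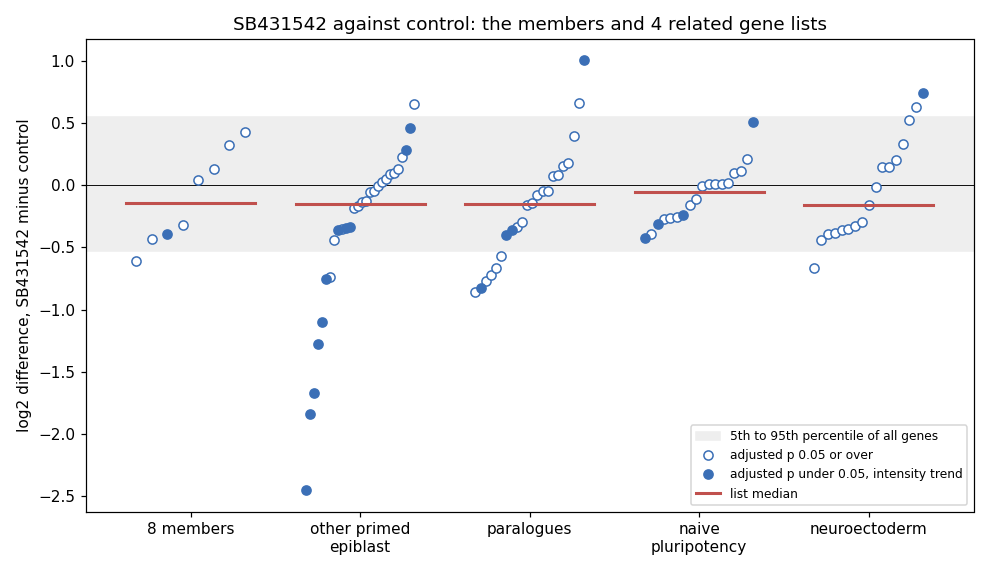
Log2 difference of SB431542 minus control for each gene (points, 1 probe set per gene, filled where the intensity trend gave an adjusted p under 0.05) in the 8 members and 4 related lists; red lines are list medians and the grey band runs from the 5th percentile of all genes, −0.53, to the 95th, 0.54. The members lie between −0.61 and 0.43, while the other primed epiblast genes reach −2.45.

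Close relatives of the members gave a comparison by family. Of 23 paralogues 22 were measured, with 3 lower and 1 higher after SB431542 by the intensity trend and 0 by default. Of all genes 2.23% were lower and 4.25% higher there by the intensity trend. Pim1, a kinase of the same family as Pim2, fell by 0.83 on the log2 scale (adjusted p = 1.18e-05 with the intensity trend), while its second probe set was at −0.37 (0.214). Zic5, which neighbours Zic2 in the genome and shares its zinc finger family, fell by 0.36 (adjusted p = 0.0483 with the intensity trend), and its 2 dimmer probe sets were at −0.47 and −0.64. Among the carbonic anhydrases Car4 rose by 1.00 on the log2 scale (adjusted p = 5.82e-05 with the intensity trend) and Car2 fell by 0.40 (0.0011), on either side of Car14. Without 1 array, 2 to 5 of the 22 were lower, 2 of them without either SB431542 array or control replicate 1 and 5 without control replicate 2. After activin 0 of the 22 paralogues and 0 of the 28 primed epiblast genes passed by either test, where 0.011% of all genes were lower and 0.137% higher by the intensity trend. Without control replicate 1, the trend fit gave 1 paralogue and 1 primed epiblast gene higher after activin. Without control replicate 2, it gave 1 paralogue lower and, of the primed epiblast genes, 1 higher and 1 lower.

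Naive pluripotency genes, the counterpart of the primed set, lay on both sides of control. Of 20 entries 18 were measured, with 3 lower and 1 higher after SB431542 by the intensity trend and a median of −0.058. The shares of all genes by that fit were 2.23% lower and 4.25% higher. Klf4 rose by 0.50 on the log2 scale (adjusted p = 1.58e-04 with the intensity trend), although its second probe set was at 0.018. Tfcp2l1 fell by 0.42 (0.0059) and Nanog by 0.24 (0.0408). Pou5f1, the POU factor shared by naive and primed cells, fell by 0.43 with the intensity trend (adjusted p = 1.51e-04). Leaving out SB431542 replicate 2 left 0 naive genes lower, and leaving out SB431542 replicate 1 or control replicate 1 left 1.

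Since Otx2, Sox3, Zic2 and Pou3f1 are also neural plate genes, neuroectoderm genes were read beside them. Of 17 measured, 1 rose after SB431542 by the intensity trend, where 4.25% of all genes did, so the count is not read as particular to this list. That gene was Pax6, by 0.74 on the log2 scale (adjusted p = 0.0083 with the intensity trend). Its 4 dimmer probe sets lay between −0.35 and 0.31 without passing. Without SB431542 replicate 1 none of the 17 passed, and without control replicate 1 there were 2 higher. Hesx1 was at 0.63 (0.0848), Nes at −0.35 (0.244) and Gbx2 at −0.39 (0.253), all by the intensity trend. Sox1, which defines the neural plate, was at 4.52 and 4.32 after SB431542 and at 5.32 and 4.86 in control cells, at or near the bacterial range. Of the 7 neuroectoderm markers set apart for checking cell types, 3 were above that range on all arrays, and the summed intensity of the 7 was 721 to 817 after activin, 681 to 762 after SB431542 and 689 to 776 in control cells.

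Markers of embryonic stem cells and of other cells also differed after SB431542, a comparison in which 2.23% of all genes fell and 4.25% rose by the intensity trend. Of the 6 embryonic stem cell markers 3 fell by the intensity trend, Pou5f1, Nanog and Utf1. The summed intensity of these 6 was 28540 to 28578 after activin, 25459 to 25564 after SB431542 and 27656 to 29424 in control cells. Of 6 trophectoderm markers 4 rose by the intensity trend (Gata3, Krt8, Krt18 and Tfap2c), of which Krt18 is also 1 of the 2 primed epiblast genes that rose. The summed intensity of the 6 was 10187 to 10464 after activin, 16376 to 16481 after SB431542 and 10917 to 12706 in control cells. These sums are on the linear scale and come mostly from Krt8 and Krt18, at mean log2 levels of 12.80 and 12.68 after SB431542. Of the defining factors, Cdx2 was at −0.11 and did not pass, and Elf5 read within the background range on all 6 arrays. Of 5 mesendoderm markers measured 2 fell, Eomes and Mixl1, with sums over the 5 of 575 to 784 after activin, 215 to 226 after SB431542 and 625 to 684 in control cells. Of 6 fibroblast markers 1 fell, Col1a1, by 0.98 (adjusted p = 0.0172 with the intensity trend), and of 5 markers of extraembryonic endoderm 0 passed by either test. The part of these shifts in the members' differences was not tested. In bulk RNA fewer cells that express a gene and less of its RNA per cell cannot be told apart.

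The genes most like each member over the 6 arrays were sought among 3592 named probe sets with a mean log2 of at least 7 and a range of at least 0.50. By Pearson's r over the 6 arrays, the nearest to Otx2 were Nupr1 (0.992) and Zfp941 (0.976), and the nearest to Pou3f1 were Tspan9 (0.997) and Lfng (0.996). Those nearest to Zic2 were Exosc4 (0.994) and Zfp24 (0.982), and to Sox3 Pdp1 (0.989) and Tmem40 (0.984). For Foxd3 they were Ints14 (0.971) and Cdc42bpa (0.971), and for Sall2 Coq4 (0.989) and Trim6 (0.983). For Pim2 they were Map7d2 (0.994) and Dcbld1 (0.994), and for Car14 Mettl4 (0.984) and Mief2 (0.984). Each member was represented by its brightest probe set alone. Each r is among the highest of 3592 over only 6 arrays, so high values arise from the selection itself. The arrays also differ in brightness, and whether they were normalized together is not known. No p is given.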

How the data were processed

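RNA from 3 groups of E14Tg2a cells, 2 arrays each, was measured on Affymetrix mouse arrays. The deposited values are intensities on a linear scale, made by the authors with RMA per the submitters' processing notes, with no version, and rounded to whole numbers; software and any further steps: not given in the sources used here. Array medians ran from 37 to 49, and whether all arrays were normalized together is not known. The intensities were converted to log2 with no further scaling. The 64 control probe sets were left out, leaving 45037, of which 34945 have 1 symbol in the platform annotation, 932 several and 9160 none. In lists, the brightest probe set stood for a gene.

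Groups came from the titles; 1 title and the condition labels spell the inhibitor SB432542. All 6 arrays were fitted in limma 3.58.1 (R 4.3.3), with Benjamini-Hochberg adjustment, by default and with the intensity trend. The fit was tested on simulated data. Members and lists were chosen with earlier results of these data known. Every member probe set is named; from each list at most 4 genes with the smallest p, markers apart, and for each member its 2 nearest genes. Of 122 different list entries 116 matched; the rest were not analysed here. Alternatives were repeated quantile normalization, a common median, the dimmest 40% left out, gene means, the title number as a block and leaving out each array. Arrays carry no read depth; their number limits precision.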

Additional observations from a re-analysis of the deposited data

How the results depend on the processing

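Of 30 differences (10 probe sets in 3 comparisons), 19 kept their sign in all 19 alternatives and 11 did not, none of them past the threshold. No member passed by default limma under any alternative other than the intensity trend. Over all probe sets, SB431542 against control, activin against control and activin against SB431542 gave 7, 0 and 9 calls by default limma. The intensity trend gave 2242, 97 and 1024, and 791, 78 and 412 came with arrays shifted to 1 median. Of the calls in SB431542 against control 1 was higher and 6 lower by default limma. That split was 1520 and 722 for the trend fit, 427 and 364 with 1 median, and 18 and 22 with repeated quantile normalization. In activin against SB431542 the splits were 8 and 1, 361 and 663, 204 and 208, and 30 and 19. Repeated quantile normalization gave 40, 0 and 49, leaving out the dimmest 40% gave 21, 0 and 30, and 1 value per gene gave 13, 0 and 27. The replicate block gave 0, 0 and 1. Same-numbered arrays deviated together at r = 0.022 for SB431542 and control, −0.14 for activin and control and −0.093 for activin and SB431542. These deviations include the brightness of each array, so whether the titles' numbers pair the arrays cannot be told from them. Crossed pairing, chosen after seeing the data, gave 2, 0 and 3. Leaving out each array, by either test, gave 0 to 2560, 0 to 201 and 0 to 1493 calls over all probe sets, and 0 to 2, 0 and 0 to 1 member probe sets; in fits with 1 array in a group, that array is assumed to vary like the others.

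Signs turned as follows, and the cause was not tested. With repeated quantile normalization Foxd3 stood at −0.035 in SB431542 against control and Otx2 at 0.042 in activin against SB431542. With 1 value per gene, which averages 2 probe sets, Pou3f1 stood at 0.085 and Sox3 at −0.24 after SB431542, and Sox3 at 0.24 after activin. Leaving out each array, SB431542 against control ran from −0.26 to 0.52 for the dimmer Sox3 probe set, −0.14 to 0.22 for Foxd3 and −0.041 to 0.31 for Car14. Activin against control ran from −0.24 to 0.026 for Zic2, −0.29 to 0.059 for Car14, −0.17 to 0.0073 for the brighter Pou3f1 and −0.28 to 0.23 for the brighter Sox3 probe set. Activin against SB431542 ran from −0.13 to 0.11 for Otx2, −0.021 to 0.76 for the dimmer Sox3 probe set and −0.059 to 0.30 for Foxd3.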
